A study of Mus musculus with 6 samples.

Results

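Syndecans and glypicans are the main proteoglycans that hold heparan sulfate chains at the cell surface. The genes taken were 9, Sdc1, Sdc2, Sdc3, Sdc4, Gpc1, Gpc2, Gpc3, Gpc4 and Gpc6, matched by the gene name column of the deposited table, and 8 of them had a row among its 19353 genes. Gpc3 was not analysed here. RNA came from purified bone marrow mesenchymal stem cells of wild-type mice, stromal progenitors that can become bone, cartilage or fat cells. All 6 samples were cultured in serum-containing medium that drives bone formation by 100 nM dexamethasone, 10 mM β-glycerophosphate and 50 µM ascorbic acid. The 3 MCH samples additionally received 0.5 µM melanin-concentrating hormone, a hypothalamic peptide, and the 3 Control samples did not. The titles say day 9 and the series design says day 8. The labels leave out age and sex, and also whether each library had its own animal or culture, so the tests rest on a between-library spread that could be purely technical. The table's MCH columns are named as such and the other 3 columns carry no group word and were read as Control. In the authors' deposited table all 212 genes marked UP were higher in those other 3 columns, and all 31 marked DOWN were higher in the MCH columns, so the authors' marks run opposite to the signs given here (MCH minus Control). If the column names were exchanged, every direction below would turn. The question is whether the cell surface heparan sulfate proteoglycans differed between cells with and without the peptide.

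Syndecans are single-pass membrane proteins with a short conserved cytoplasmic tail, whereas glypicans are anchored to the outer leaflet by a glycolipid. Both carry heparan sulfate, a sulfated sugar chain that binds growth factors such as FGFs, Wnts, BMPs and hedgehogs and presents them to their receptors. In bone-forming cells these proteoglycans are known as co-receptors and, for the syndecans, as partners of integrins in adhesion to fibronectin. Of the members, Sdc4 works in focal adhesions, Sdc1 is known from epithelia and plasma cells, Sdc2 from mesenchymal cells and Sdc3 from the nervous system and developing limb. Gpc1, Gpc2, Gpc4 and Gpc6 form one subfamily of the glypicans and Gpc3 and Gpc5 the other. Gpc1 and Gpc2 are best known from the nervous system, Gpc4 as a modulator of FGF and Wnt signalling, and Gpc6 from the growth of long bones.

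All 4 syndecans end in a motif that binds PDZ domain proteins such as syntenin. Genes of partners of the tail, not only of this motif, were measured too. The ends of the syndecan coding sequences are shown because their final bases encode this shared motif. Each is the last 84 coding bases before the stop codon in the longest complete coding model of GENCODE M21 (GRCm38), 5′ to 3′, with the final 12 bases in capitals.
Sdc1: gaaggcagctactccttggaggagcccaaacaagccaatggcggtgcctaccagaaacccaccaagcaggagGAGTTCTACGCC
Sdc2: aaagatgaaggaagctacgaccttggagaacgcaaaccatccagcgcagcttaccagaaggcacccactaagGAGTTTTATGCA
Sdc3: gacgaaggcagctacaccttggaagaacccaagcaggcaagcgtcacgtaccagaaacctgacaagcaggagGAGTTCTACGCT
Sdc4: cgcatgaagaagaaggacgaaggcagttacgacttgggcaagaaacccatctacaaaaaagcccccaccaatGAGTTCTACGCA
Aligned at the 3′ end without gaps, the Sdc1 and Sdc3 stretches shared 48 of 84 bases, more than any other pair, and Sdc2 and Sdc4 shared 36. Like runs at unequal distances from the end count as different here, so these counts can understate the likeness. In the capitals, 9 of 12 bases were the same in all 4 genes.

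With MCH, Sdc3 transcripts fell to 0.767 of the Control level, and no other syndecan or glypican passed the test. Sdc4 was by far the most abundant member in every library. Its level, like that of Gpc4, was somewhat higher with MCH, but neither passed. Sdc1 and Gpc2 were lower without passing, Sdc2 and Gpc1 had estimates near 0, and Gpc6 differed more between libraries of a group than between groups. Of the 8 members tested, 1 was called lower and none higher (edgeR quasi-likelihood test with Benjamini-Hochberg adjustment over 13662 genes, threshold 0.05), where 5.4% of all tested genes were called lower and 3.64% higher, 9.04% in all. At an unadjusted p under 0.05, 3 members were lower and 2 higher, where 13.8% of all tested genes were lower and 12.9% higher; DESeq2 and limma-voom also called 1 lower and none higher. The median log2 fold change of the 8 was -0.09 beside 0.0021 for all tested genes. In 5 of the 8 the CPM of the groups did not overlap, as was so for 32.8% of all tested genes.

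**Figure D1:**
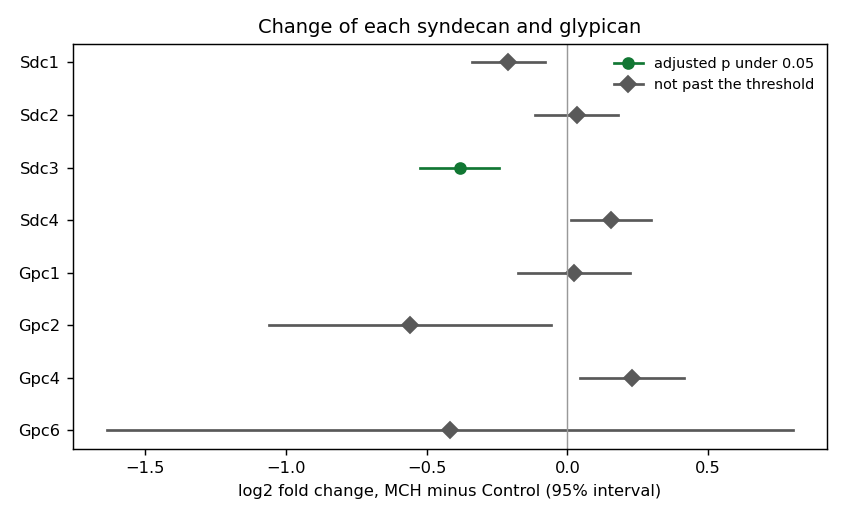
Log2 fold change of each member, MCH minus Control, with its 95% interval from the edgeR fit (3 libraries per group). The interval of Sdc3 runs from -0.52 to -0.24 and its adjusted p is under 0.05, and the interval of Gpc6 is the widest.

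Levels were compared between genes per length. The deposited FPKM (fragments scaled by gene length and by sequencing depth) does not use the merged exon length: the length that counts and FPKM imply equalled the summed length of all distinct annotated exons, overlaps counted again, within 1% for 69.5% of 13614 tested genes, and the merged exon length for 12.3%. Genes with many overlapping exon models are thus understated in FPKM. For Gpc2 the implied length was 10912 bases, longer than its whole locus of 6.35 kb, against 4274 bases of merged exons, and for Sdc1 it was 6439 against 3809. Levels are therefore given as CPM (counts scaled to a common library size, here with TMM factors) per kb of merged M21 exons, with the deposited FPKM beside them. This scale cannot show which isoform was expressed.

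By this scale the Control order was Sdc4 (299 ± 9.69 CPM per kb; SD, n = 3), Sdc2 (54.9 ± 2.81), Sdc1 (31.9 ± 0.504), Sdc3 (21.6 ± 1.15), Gpc4 (18.2 ± 0.927), Gpc1 (8.15 ± 0.759), Gpc6 (8.13 ± 2.95) and Gpc2 (3.76 ± 0.392). Only Gpc1 and Gpc6 overlapped among neighbours in that order. With MCH, Gpc4 (21.3 ± 1.41) stood above Sdc3 (16.5 ± 0.232), and the rest of the order was the same. In deposited FPKM, Sdc1 (18.9), Sdc3 (18.6) and Gpc4 (18.2) could not be told apart in Control, so the rank of Sdc1 depends on the length used. Sdc4 was 5.44 times as high as Sdc2 in Control and 5.93 times with MCH.

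**Figure D2:**
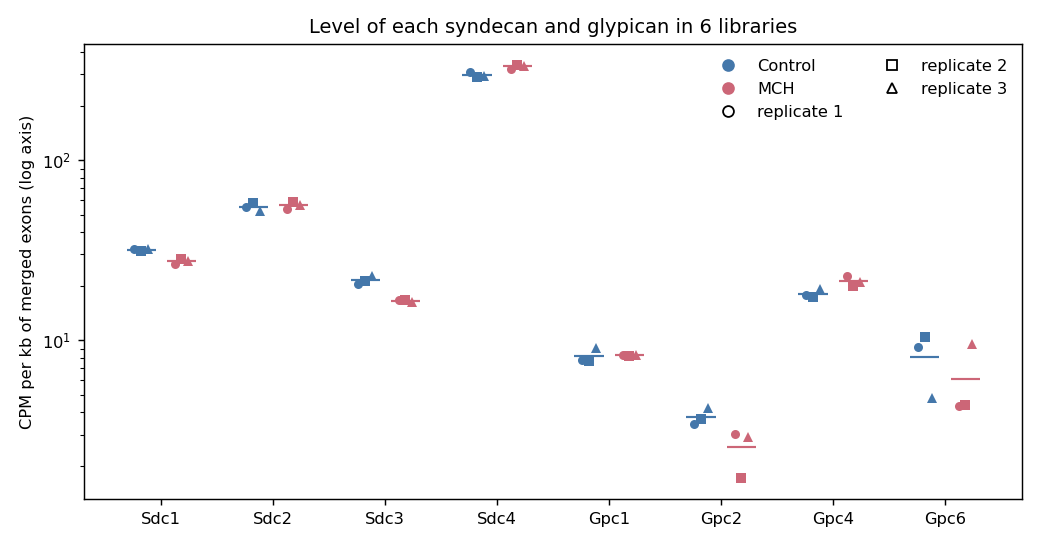
Level of each member in each library, in CPM per kb of merged exons on a log axis, with a line at each group mean. Sdc4 lies above all others at 299 and 333 in Control and MCH, and Gpc2 is lowest at 3.76 and 2.55.

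Sdc4, on chromosome 2 at 164424247 to 164443887 (GRCm38), was a strongly expressed gene in these cells. It was listed at 269, 262 and 262 FPKM in Control replicates 1 to 3 and at 290, 294 and 293 FPKM with MCH. Every MCH library lay above every Control library. On the scale of the fit the difference was small: the mean was 761 ± 24.7 CPM in Control (SD, n = 3) and 847 ± 22.6 with MCH, with 0.16 ± 0.06 as log2 fold change (SE; edgeR adjusted p = 0.154; 95% interval 0.013 to 0.30). The interval reaches 1.23-fold.

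Sdc2, on chromosome 15 at 32920723 to 33034730, was the next most abundant. Its 3 Control libraries stood at 194, 203 and 183 CPM and its MCH libraries at 190, 206 and 199 CPM. The groups overlapped. The log2 fold change was 0.03 ± 0.06 (edgeR adjusted p = 0.785), with a 95% interval of -0.11 to 0.18, and its sign turned without Control replicate 3.

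Sdc1, on chromosome 12 at 8771323 to 8793715, stood at 123, 119 and 122 CPM in Control and at 101, 108 and 105 CPM with MCH. All MCH libraries were below all Control libraries, and the spread within each group was small. The log2 fold change of -0.21 ± 0.06 just missed the threshold in edgeR (adjusted p = 0.0589). It passed when only genes with at least 50 counts in 3 libraries were tested (adjusted p = 0.0454) and with limma on log2(FPKM + 1) (adjusted p = 0.0414). Among 6 epithelial and keratinocyte markers, none was tested for lack of counts, and the only high values were those of Krt5 and Krt14 in Control replicate 2, with 82 and 94 counts against 2 to 10 elsewhere. The part of such cells in the Sdc1 level was not tested. Of the plasma cell markers, Jchain had 2 to 5 counts and Mzb1 0 to 4.

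Sdc3 was the only member that passed in the edgeR fit. It lies on chromosome 4 at 130792537 to 130826319 and stood at 123, 127 and 137 CPM in Control replicates 1 to 3 and at 99.9, 99.8 and 97.4 CPM with MCH. The 3 MCH libraries were nearly the same, including replicate 1, the MCH library closest to Control over all genes (first principal component -10.9 against -32.3 and -24.8). Sdc3 fell by 0.38 ± 0.06 on the log2 scale, with a 95% interval of 0.695 to 0.845 for the fold (edgeR adjusted p = 0.0113). Leaving out MCH replicate 3 gave an adjusted p of 0.0642 and ended the call, with a log2 fold change of -0.37. In the authors' deposited table Sdc3 had q = 0.147 and none of the 8 members was marked as changed.

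The genes whose pattern over the 6 libraries was most like that of Sdc3 were Zfp213 and Igf2bp3, with a root mean square difference of 0.0185 and 0.0189 in log2 CPM centred per gene. They had log2 fold changes of -0.35 and -0.39 and did not pass (edgeR adjusted p = 0.0696 and 0.138). Antisense gene models overlap Sdc3 exons by 415 and 48 bases, and the strand setting of the counting is not given in the sources used here, so reads of such transcripts could be included.

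**Figure D3:**
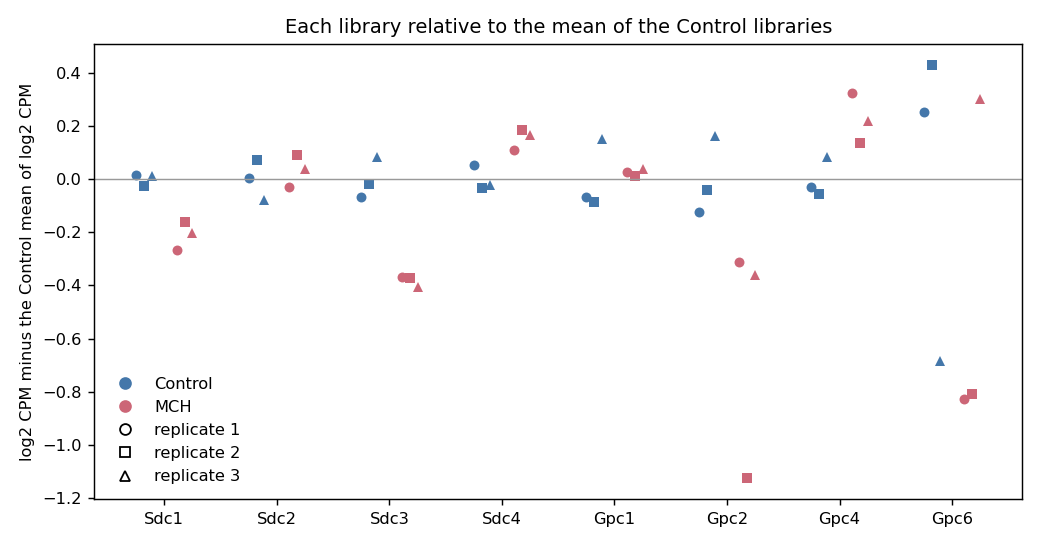
Each library's log2 CPM minus the Control mean for the 8 members, with colour for the group and shape for the replicate number. Sdc1, Sdc3 and Gpc2 lie below 0 in all MCH libraries, Sdc4 and Gpc4 above all Control libraries, and Gpc6 is split within both groups.

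The shares of the syndecans in their summed level are given as a description, without a test. Per kb of merged exons, Sdc4 made up 74.2%, 72.6% and 73.4% of the summed syndecan level in Control and 76.9%, 76.6% and 77.0% with MCH, so the groups did not overlap. Sdc3 made up 4.93% to 5.69% in Control and 3.73% to 3.97% with MCH, and Sdc1 7.71% to 8.00% and 6.31% to 6.42%. The Sdc2 share overlapped between groups, at 12.95% to 14.33% in Control and 12.81% to 13.17% with MCH. The summed level was 407 ± 9.19 CPM per kb in Control and 433 ± 12.1 with MCH, without overlap. Since Sdc4 dominates the sum, its direction is that of Sdc4.

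Among the glypicans, Gpc4 led. It lies on chromosome X at 52053021 to 52165252 and stood at 47.3, 46.4 and 51.0 CPM in Control and at 60.4, 53.0 and 56.1 CPM with MCH. The MCH libraries were all above Control, with a small gap between Control replicate 3 and MCH replicate 2. The log2 fold change was 0.23 ± 0.08 (edgeR adjusted p = 0.118; 95% interval 0.043 to 0.41). Gpc4 has 1 transcript model in M21, and its implied and merged lengths were the same, 2651 bases.

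Gpc1, on chromosome 1 at 92831645 to 92860779, had the narrowest spread with MCH of the glypicans, 42.3 to 43.0 CPM over 3 libraries. In Control it stood at 40.0, 39.5 and 46.5 CPM, a range that holds all MCH values. The log2 fold change of 0.02 ± 0.09 did not pass (edgeR adjusted p = 0.894; 95% interval -0.18 to 0.22), and its sign turned without Control replicate 1 or 2. The antisense neighbour Ankmy1 overlaps its exons by 977 bases but had only 1 to 5 counts per library.

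Gpc2, on chromosome 5 at 138273655 to 138280005, was the lowest member. It had 239, 298 and 309 counts in Control and 220, 130 and 215 with MCH. After scaling, these became 14.7, 15.6 and 17.9 CPM against 12.9, 7.33 and 12.5 CPM, so every MCH library was lower and MCH replicate 2 lowest by far. The log2 fold change of -0.56 ± 0.21 was the lowest estimate among the members, yet it did not pass (edgeR adjusted p = 0.148). It was -0.34 without MCH replicate 2. A model on the same strand, Gm43720, shares 2376 exon bases with Gpc2 and had 0 to 6 counts, and how the authors counted reads in the shared bases is not known, so the level of Gpc2 is uncertain.

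Gpc6, next to Gpc5 on chromosome 14 at 116925297 to 117979529, spans 1054 kb and had a split pattern. Control replicates 1 and 2 stood at 59.0 and 66.9 CPM and Control replicate 3 at 30.8 CPM. MCH replicates 1 and 2 stood at 27.9 and 28.3 CPM and MCH replicate 3 at 61.2 CPM. The highest library was thus 2.17 times the lowest in Control and 2.19 times with MCH, and the high and low libraries did not follow the groups. The log2 fold change of -0.42 ± 0.47 has a 95% interval from -1.64 to 0.80 (edgeR adjusted p = 0.630), so a level 2-fold lower with MCH lies within it.

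Gpc6 had 476 to 1278 counts per library. Of 4500 tested genes with at least its mean count of 800, 49 (1.09%) differed by at least 2-fold within both groups; this measure was chosen after its values were seen. Gpc5 had 0 to 3 counts in every library and was not tested. The implied length of Gpc6 was 13646 bases against 8564 for its distinct M21 exons, so the authors' annotation differs from M21 at this gene and its level per kb is uncertain.

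The glypican mix varied mostly with Gpc4 and Gpc6. Per kb of merged exons, Gpc4 made up 46.7%, 44.6% and 51.6% of the summed glypican level in Control and 59.3%, 58.3% and 50.4% with MCH, so the groups overlapped. Gpc6 made up 12.9% to 26.5% in Control and 11.3% to 22.7% with MCH. Only the Gpc2 share did not overlap, at 8.99% to 11.26% in Control and 5.00% to 7.85% with MCH. The summed level was 38.2 ± 0.981 CPM per kb in Control and 38.2 ± 3.83 with MCH.

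**Figure D4:**
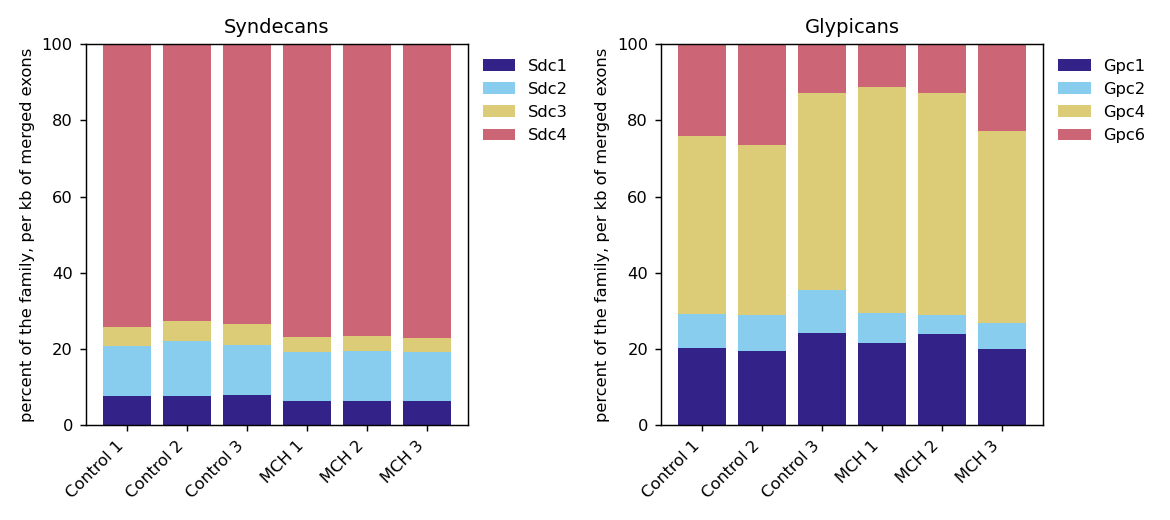
Percent of the summed level (CPM per kb of merged exons) taken by each syndecan and each glypican in the 6 libraries. Sdc4 fills 72.6% to 77.0% of the syndecan bars, and the Gpc6 segment is small in Control replicate 3 and in MCH replicates 1 and 2.

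Genes that build, cut, carry or use heparan sulfate were read from the same fit in 8 lists by role. Of 131 genes, 119 had a row and 101 were tested; 16 fell and 3 rose with MCH, that is 15.8% and 2.97%, beside the 5.4% and 3.64% of all tested genes. The median log2 fold change of the 101 was -0.05. The same shares of all tested genes stand beside the calls of each list below. Beside list counts at an unadjusted edgeR p under 0.05 stand 13.8% of all tested genes lower and 12.9% higher. The lists were chosen with earlier results of these data known, so their share of falls could be high through that choice. It was not tested. The lists for shedding and processing, ligands and receptors held 12 of the 16 falls and 44 of the 101 tested genes; these 3 were put together after their calls were seen.

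Among other heparan sulfate proteoglycans, 1 of 7 tested genes fell and none rose (at an unadjusted p under 0.05, 3 lower and none higher; DESeq2 called 2 lower and limma-voom 1). Col18a1, the basement membrane collagen from which endostatin is cut, fell from 51.6 ± 3.63 to 33.5 ± 0.441 CPM, by 0.62 ± 0.08 (edgeR adjusted p = 0.00435). Tgfbr3 or betaglycan, a TGF-beta co-receptor, was most abundant per length (48.6 CPM per kb in Control and 43.1 with MCH) and did not pass (edgeR adjusted p = 0.0977). The difference in Hspg2, which encodes perlecan, was as large as that of Col18a1 (-0.64 ± 0.18) but did not pass in edgeR (adjusted p = 0.0829); DESeq2 called it.

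In the list for the linker and chain assembly, 1 of 13 tested genes fell and 1 rose (DESeq2 called 1 lower and 2 higher). At an unadjusted edgeR p under 0.05, 2 were lower and 2 higher. Extl3, a glycosyltransferase that starts the heparan sulfate chain, fell from 152 ± 7.30 to 123 ± 4.56 CPM, by 0.30 ± 0.06. Extl2, which can stop chain growth, rose from 29.6 ± 1.14 to 37.1 ± 1.80 CPM, by 0.33 ± 0.08, but its call was lost on leaving out any of the 6 libraries (highest edgeR adjusted p = 0.125). The chain polymerase genes did not pass in edgeR, Ext1 at -0.11 ± 0.07 and Ext2 at 0.21 ± 0.06 (edgeR adjusted p = 0.346 and 0.0570). Ext2 was called by DESeq2 (adjusted p = 0.0461) and by limma on log2(FPKM + 1) (adjusted p = 0.0489). Xylt1 had the lowest estimate of the list, -1.69 ± 0.44, on only 3 to 25 counts per library. It just missed the threshold (edgeR adjusted p = 0.0534) and passed without MCH replicate 1 (edgeR adjusted p = 0.0402). Ugdh, which makes the precursor UDP-glucuronic acid, was the most abundant of the list, at 51.9 CPM per kb in Control and 56.6 with MCH, and did not pass.

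Of 12 tested genes for sulfation and epimerisation in the Golgi, none passed in edgeR, DESeq2 or limma-voom (at an unadjusted p under 0.05, 2 lower and none higher), and their median log2 fold change was 0.0077. The sulfate donor transporter Slc35b2 was the most abundant (38.2 CPM per kb in Control and 41.2 with MCH). The 3-O-sulfotransferase genes Hs3st1, Hs3st3b1 and Hs3st6 had at most 10 counts in any library and were not tested. In the list for editing after synthesis, Sulf2, an extracellular enzyme that removes 6-O-sulfates, fell from 223 ± 10.9 to 175 ± 12.0 CPM, by 0.35 ± 0.07 (edgeR adjusted p = 0.0259), and its paralog Sulf1 stood at -0.34 ± 0.12 without passing. The lysosomal acetyltransferase gene Hgsnat, the most abundant of the editing and breakdown list, rose from 129 ± 4.21 to 157 ± 3.54 CPM, by 0.28 ± 0.05. These were the calls among its 10 tested genes, 1 lower and 1 higher. At an unadjusted edgeR p under 0.05, 3 were lower and 1 higher.

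The list for shedding and core protein processing had 4 falls and no rise among 12 tested (at an unadjusted p under 0.05, 5 lower and 2 higher; DESeq2 and limma-voom also 4 and none). The gelatinases Mmp2 and Mmp9, which can cut syndecan ectodomains, fell by 1.60 ± 0.11 and 1.02 ± 0.16. Mmp9 was low, with 184 to 209 counts in Control and 86 to 109 with MCH. Furin, a proprotein convertase that cleaves glypicans, fell from 129 ± 12.6 to 92.3 ± 8.56 CPM, by 0.48 ± 0.10. Gdpd5, a phosphodiesterase that acts on glycolipid anchors, fell by 0.59 ± 0.12. The sheddase genes Adam10 and Adam17 did not pass (0.35 ± 0.52 and 0.08 ± 0.10), and Gde1 was the most abundant of the list at 36.9 and 42.7 CPM per kb.

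Among 15 partners of the syndecan tail, 1 fell and none rose (at an unadjusted p under 0.05, 4 lower and 1 higher; DESeq2 and limma-voom also 1 and none). Cttn, the actin-binding protein cortactin, fell from 454 ± 26.7 to 366 ± 11.9 CPM, by 0.31 ± 0.07. Sdcbp, the gene of syntenin, which binds the end encoded by the capitals above, stood at -0.02 ± 0.06 and did not pass (edgeR adjusted p = 0.894). Ezr, which links membrane proteins to actin, was the most abundant of the list by FPKM averaged over all libraries (68.9 in Control and 72.4 with MCH). Per kb of merged exons Cttn led in Control (108 CPM per kb, against 88.2 for Rac1). With MCH, Rac1 led (101 CPM per kb, against 87.3 for Cttn).

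Heparin-binding ligands had 4 falls and 1 rise among 16 tested genes (DESeq2 and limma-voom also 4 and 1). At an unadjusted edgeR p under 0.05, 6 were lower and 2 higher. Ptn, the growth factor pleiotrophin that binds syndecans, fell from 12.1 ± 2.05 to 4.84 ± 0.682 CPM, by 1.32 ± 0.18 (edgeR adjusted p = 0.00564). Hgf, hepatocyte growth factor, fell by 1.06 ± 0.19, and Fgf10 by 0.47 ± 0.09. The most abundant gene of the list was Fn1, fibronectin, a matrix ligand of Sdc4 and integrins, which fell from 4408 to 3270 CPM, by 0.43 ± 0.09. Rspo2, a Wnt signalling enhancer, rose from 35 to 54 counts in Control to 80 to 90 with MCH, by 0.94 ± 0.17.

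Of 16 tested receptors that work with heparan sulfate, 4 fell and none rose (at an unadjusted p under 0.05, 5 lower and 1 higher; DESeq2 and limma-voom also 4 and none). Lrp1, an endocytic receptor that shares ligands with the proteoglycans, fell from 1571 ± 138 to 798 ± 86.2 CPM, by 0.98 ± 0.10 (edgeR adjusted p = 0.00236). Ptprs, a receptor phosphatase for heparan sulfate chains, fell by 0.50 ± 0.10, the Wnt receptor Fzd1 by 0.58 ± 0.12, and Fgfr1 from 390 ± 2.75 to 314 ± 6.91 CPM, by 0.31 ± 0.05. Itgb1, the β1 integrin subunit that acts with Sdc4 in adhesion, was the most abundant (199 CPM per kb in Control and 210 with MCH) and did not pass.

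Calls for Mmp2, Lrp1, Ptn and Col18a1 were kept in all 6 fits with 1 library left out. Those for Sulf2, Extl3, Fn1, Fgfr1, Ptprs, Fzd1 and Rspo2 each failed once replicate 2 or 3 of either group was left out (highest adjusted p = 0.134, for Fn1). Furin lost its call without MCH replicate 2 or 3 or Control replicate 1 or 3 (highest adjusted p = 0.103), and Cttn, Hgsnat and Gdpd5 lost theirs in every such fit but that without MCH replicate 1 (highest adjusted p = 0.132). For Fgf10 it was lost without MCH replicate 2 or 3 or Control replicate 2, for Hgf without MCH replicate 3 or Control replicate 2 or 3 (highest adjusted p = 0.0677 for both), and for Mmp9 without replicate 3 of either group (highest adjusted p = 0.0541). Sulf2 shares 154 exon bases with the antisense gene Ncoa3, and Hgf 484 with the same-strand model Gm43489.

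**Figure D5:**
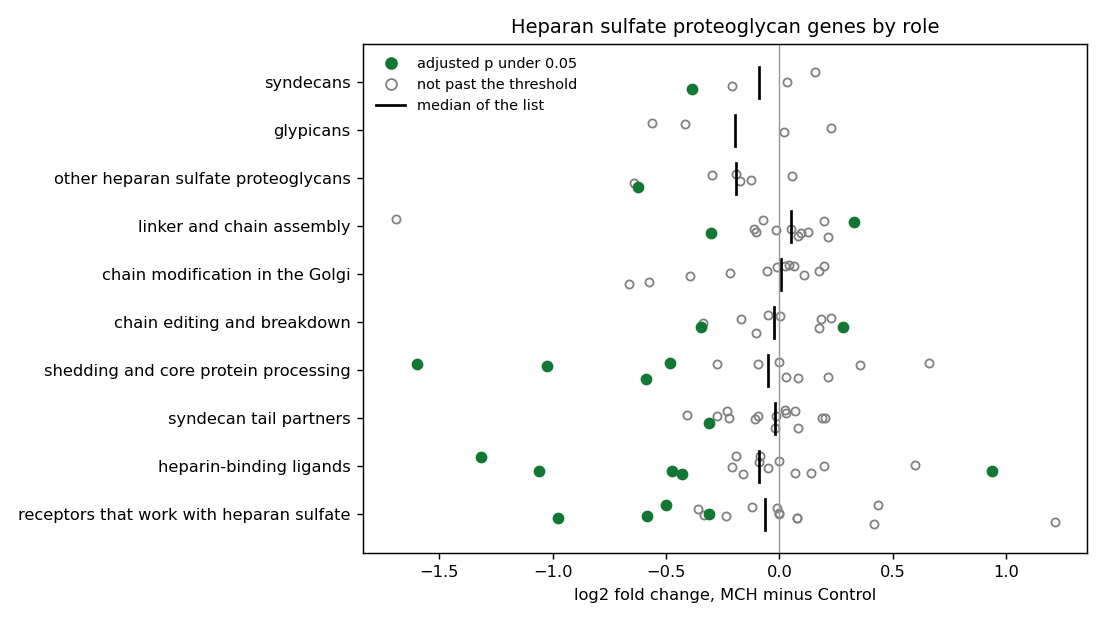
Log2 fold change, MCH minus Control, of each tested gene by role, with filled points for adjusted p under 0.05 and a bar at the list median. In the lists for shedding and processing, ligands and receptors, 12 filled points lie below 0 and 1 above, among 44 tested genes. Of all tested genes, 5.4% were called lower and 3.64% higher.

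Library totals ran from 16521980 to 18803949 counts. In bulk RNA, fewer cells of a type and less RNA per cell cannot be told apart. Of 11 stromal markers, all tested, 4 fell, where 5.4% of all tested genes were called lower. Among these 4 was the most abundant marker, Ly6a, which fell by 0.90 ± 0.11. It made up most of the markers' summed level of 345 to 376 FPKM in Control and 193 to 222 with MCH. Of those that did not pass, Lepr, Cd44, Thy1, Prrx1 and Cxcl12 also had estimates below 0, from -0.72 for Lepr to -0.09 for Cxcl12. Only Vcam1 at 0.48 ± 0.14 (edgeR adjusted p = 0.0745) and Eng at 0.04 ± 0.16 went the other way. The median log2 fold change of the 11 was -0.30. Of 6 osteoblast markers, 3 of 4 tested fell, beside the same 5.4%: Alpl at -1.28 ± 0.08, Spp1 at -1.06 ± 0.06 and Col1a1 at -0.44 ± 0.08. Runx2 stood at -0.24 ± 0.07 and did not pass (edgeR adjusted p = 0.0822). Sp7 and Bglap had at most 4 counts in any library. The part of a change in cell make-up in the Sdc3 result was not tested. The 9 macrophage markers summed to 734 to 894 counts per Control library and 861 to 1519 with MCH. Most of these counts were of Cd68, with 549 to 606 in Control and 690 to 934 with MCH, which did not pass (0.47 ± 0.13, edgeR adjusted p = 0.0655). Of the other tested markers none passed: Csf1r at 0.50 ± 0.29, Lyz2 at 0.39 ± 0.51, Ctss at 1.55 ± 1.21 and Mrc1 at -0.24 ± 0.37. Adgre1 had 50 counts in MCH replicate 3 and 0 to 11 elsewhere. In the same library Ctss had 92 counts against 5 to 23 elsewhere, and C1qb 31 against 0 to 9. Lyz2, Csf1r, Mrc1 and Cd68 were also highest there. The part of macrophages in any result was not tested. Ptprc, the pan-leukocyte gene, had at most 2 counts in any library. None of the endothelial, neuronal or glial and B cell markers tested passed, and the adipocyte markers Adipoq and Plin1 had at most 3 counts, while Lpl rose by 0.43 ± 0.10. Fabp4, the most abundant adipocyte marker, stood at -0.35 ± 0.12 and did not pass (edgeR adjusted p = 0.112).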

How the data were processed

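Whole-number read counts and FPKM for 6 libraries of polyadenylated RNA (prepared, per the labels' protocols, with a VAHTS Universal kit) were deposited by the authors, with their group means of FPKM, p-values and q-values, per the file headers. Per the submitters' processing notes, reads were placed on GRCm38 (mm10). Aligner, counting tool, annotation release, strand setting and the authors' test: not given in the sources used here. Columns named MCH were matched to the MCH titles by number. The remaining 3 columns carry no group word; they were used as Control since the series has only 1 group besides MCH, and every direction rests on that. The authors' UP mark in the deposited table goes with higher values in these columns.

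Counts were fitted over all 19353 genes with edgeR 4.0.16 (R 4.3.3): TMM scaling, filterByExpr (minimum count 10, minimum total 15; 13662 genes kept), a robust quasi-likelihood fit on group and Benjamini-Hochberg adjustment at 0.05. SE was obtained from the coefficient and its F statistic, and 95% intervals use the fit's t distribution. Steps were tested on simulated data. Alternatives used RLE and upper-quartile scaling, other filters, DESeq2 1.42.0, limma 3.58.1 (voom, and log2(FPKM + 1) or log2(FPKM + 0.1)), a block on replicate number, and omission of each library in turn. Exon lengths, coding sequences and 19250 symbols came from GENCODE M21. The members and lists were chosen with earlier results of these data known. Beyond the members, genes were named by a rule: up to 6 called genes per list and the most abundant one. Ext1, Ext2, Xylt1, Hspg2, Sulf1, Sdcbp, Rac1, Adam10, Adam17, Lpl, Vcam1, Eng and Mrc1 were named after their values were seen. So were Runx2, Lepr, Cd44, Thy1, Prrx1, Cxcl12, Csf1r, Lyz2, Ctss and C1qb.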

Additional observations from a re-analysis of the deposited data

How the results depend on the processing

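The count of members called lower, 1 as reported, was 2 with only genes of at least 50 counts in 3 libraries and 2 with limma on log2(FPKM + 1) or log2(FPKM + 0.1), where Sdc1 was added; it was 0 to 1 with 1 library left out. No member was called higher in any of these fits. For MCH against Control, genes higher were 497 and for MCH against Control, genes lower were 738; these became 65 to 722 and 256 to 867 with 1 library left out. With the replicate number as a block the counts were 28 higher and 151 lower, with 0 members called (Sdc3 adjusted p = 0.0981); same-numbered libraries did not deviate together (r of -0.16, -0.04 and -0.01), so the numbers were not taken as pairs. No named call changed direction. Levels per kb of merged exons, added after seeing the data, differed from the deposited FPKM by more than 1 SD for 13 of 16 group means, and those on the implied length did not. With 3 libraries a group, differences such as that of Sdc4 (0.16) were at the limit of what could be told from none.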

Other observations

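Met, the receptor of hepatocyte growth factor, was uneven in Control: 653, 228 and 168 counts in replicates 1 to 3, against 814 to 840 with MCH, so the groups did not overlap. Its log2 fold change was 1.21 ± 0.61 (edgeR adjusted p = 0.289) and ran from 0.88 to 2.13 over the 6 fits with 1 library left out, with adjusted p up to 0.500. Only the fit without Control replicate 1, the highest of the Control libraries, called it (log2 fold change 2.13, adjusted p = 0.000446). Other heparan sulfate genes had 1 library apart in the same way. Hs6st2, a 6-O-sulfotransferase, had 83 counts in MCH replicate 2 and 666 and 614 in MCH replicates 1 and 3. Adam10 had 459 counts in Control replicate 2 and 1104 and 1423 in the other Control libraries. Cd44, the hyaluronan receptor, had 1041 counts in MCH replicate 3 and 2222 and 2875 in the other MCH libraries. With Gpc6 these were 5 of the 82 member and list genes averaging 300 counts or more that differed by at least 2-fold within a group. Among all 8051 tested genes at that depth the share was 5.09%. These genes were singled out after their values were seen.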
